A study of Mus musculus with 18 samples.

Results

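Tgm1 and Tgm2 are 2 transglutaminases, enzymes that join proteins to each other by a covalent bond between a glutamine and a lysine. They are 2 of the 34921 genes in a table of RNA levels from mouse brain after a small experimental stroke. Both were picked for the levels measured in these same libraries, so their levels and differences are given as a description and carry no test. Tgm1 stood near 0 in sham-operated brain, at 14.4 FPKM 1 day after stroke and at 22.5 FPKM after 3 days. At 10 days it was near 1 FPKM, lower than at 3 days but still above every sham library. Tgm2 was present in sham brain at about 3 FPKM, and stood highest at 3 days as well, at 10.4 FPKM.

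The libraries are total RNA from small punches of the cerebrum of male C57BL/6 mice, an inbred laboratory strain, 9 weeks old. In photothrombotic stroke a light-activated dye clots the vessels below an illuminated spot of skull. Here rose bengal (100 mg/kg, into the abdomen) preceded 15 min of 532 nm light by 5 min, aimed at the right hemisphere. The laser gave 40 mW through a 2 mm fiber, 2 mm right of the skull landmark bregma. These settings are listed alike for all 18 libraries, sham right included, so they do not tell what the sham mice received. The stroke 4 h, stroke 1 day, stroke 3 days and stroke 10 days groups are punches of the lesion at those times after the stroke, the contralateral left group is the opposite side, and the sham right group is the matching place in sham mice, with 3 libraries in each of the 6 groups. The protocol says that the left punches came from stroke mice, while the label for disease state calls them sham and gives no time. Numbers 1 and 3 occur on both the left and the sham right side, and the labels do not settle whether such libraries share a mouse. Replicate numbers below are those in the labels, and each of the stroke and sham right groups comes from 3 animals. FPKM scales the sequenced fragments of a gene to its length and to the fragments of the whole library, so levels of different genes can be set side by side per length.

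Tgm1 sits at the inner face of the membrane of keratinocytes, where it crosslinks involucrin, loricrin and other proteins into the cornified envelope of the skin; people without it have lamellar ichthyosis. Tgm2, or tissue transglutaminase, is found in many cell types, endothelium and astrocytes among them. Calcium opens it for crosslinking, and bound GTP keeps it closed. It also acts as a G protein behind adrenergic receptors, crosslinks fibronectin and other matrix proteins outside the cell, and binds integrins at the cell surface. Retinoic acid and the cytokines of inflammation are known inducers of its gene.

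On mouse build GRCm38 (GENCODE M21), Tgm1 (ENSMUSG00000022218) is a protein-coding gene on the minus strand of chromosome 14, from 55700009 to 55713926. Tgm2 (ENSMUSG00000037820) is a protein-coding gene on the minus strand of chromosome 2, from 158116402 to 158146436. The stretch before a RefSeq start site of Tgm1 (position 55713492, GRCm38.p6) is printed because its gene was nearly silent in sham brain and at 14.4 and 22.5 FPKM after stroke. It covers chr14:55713495-55713742, minus strand, written 5′ to 3′, and holds no annotated exon. The stretch lies within the GENCODE span of Tgm1, whose 5′ end is at 55713926. The sequence before that end was not searched. The capitals mark matches to the STAT motif TTCNNNGAA.

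Tgm1 promoter: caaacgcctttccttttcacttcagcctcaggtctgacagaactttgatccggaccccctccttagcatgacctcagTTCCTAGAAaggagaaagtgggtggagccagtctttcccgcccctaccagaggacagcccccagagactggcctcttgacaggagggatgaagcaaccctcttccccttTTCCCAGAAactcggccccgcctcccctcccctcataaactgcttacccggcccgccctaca

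The first match of the 2, TTCCTAGAA, begins 173 bases before the start site and the second, TTCCCAGAA, begins 64 bases before it. Of 32851 RefSeq promoter windows of the same 248 bases, 6.97% hold this motif on either strand and 0.317% hold it at 2 or more places. The stretch also holds the GC box GGGCGG on the other strand at 2 places, 136 and 12 bases before the start site, which is true of 16.5% of the windows for 2 or more places. The letters of the AP-1 motif TGANTCA (6.73% of windows), the TATA box TATAAA (12.3%), the HIF motif ACGTG (16.5%), the C/EBP motif TTGCNNAA (9.52%), the NF-kappaB motif GGGNNTTCC (4.91%) and the SMAD motif GTCTAGAC (0.167%) are not in this window on either strand. No motif match overlaps another. A second RefSeq start site of Tgm1, at 55713088 on the same strand, was searched as well. The 198 bases before it that hold no annotated exon (chr14:55713090-55713287) have the HIF motif once, 101 bases before that site, and none of the other motifs, STAT included; 12.8% of the promoter windows of 198 bases hold the HIF motif and 5.72% the STAT motif. Which start site is used in these libraries was not tested. These are matches of letters only.

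Between 12118 and 13632 genes reached 1 FPKM in a library, and mitochondrial genes made up 24.4% to 44.6% of the summed FPKM. That sum differed between libraries, from 311067 (stroke 1 day 4) to 470682 (stroke 10 days 5). A high mitochondrial share therefore need not lower the other values of a library in proportion. Replicates correlated with the rest of their group at a mean r of 0.933 to 0.988 over the 14016 genes tested; stroke 10 days 5 (0.933, with the highest mitochondrial share) and contralateral left 5 (0.941) stood lowest. The read depth is unknown. In punched tissue a level is an average over all its cells, so more or fewer cells of a type and more or less RNA per cell cannot be told apart.

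Tgm1 was nearly absent from sham brain and stood high in the lesion at 1 day and 3 days. At 4 h after stroke it stood at 0.315, 0.263 and 0.192 FPKM in libraries 2, 3 and 6. At 1 day it stood at 9.69, 14.8 and 18.7 FPKM in libraries 1, 3 and 4. At 3 days it stood at 27.4, 16.9 and 23.3 FPKM in libraries 1, 2 and 8. Every library of these times was thus above the sham libraries given below, and the step between 4 h and 1 day left a wide gap. At 10 days the values were 1.68, 0.957 and 0.924 FPKM in libraries 1, 2 and 5, below every library of 1 day and 3 days and above every library of 4 h. The contralateral left libraries 1, 3 and 5 were at 0, 0.384 and 0.0168 FPKM, and the sham right libraries 1, 2 and 3 at 0.0154, 0.0515 and 0.0228 FPKM. Contralateral left 3 stood above every sham right library and every 4 h library, while the other two left libraries lay within or below the sham range.

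As group means, Tgm1 was at 0.257 ± 0.0621 FPKM at 4 h, 14.4 ± 4.51 at 1 day, 22.5 ± 5.26 at 3 days, 1.19 ± 0.429 at 10 days, 0.134 ± 0.217 in contralateral left and 0.0299 ± 0.0191 in sham right (SD, n = 3 each). Ordered by level, the groups run 3 days, 1 day, 10 days, 4 h, contralateral left and sham right. The libraries of 3 days and 1 day overlapped, those of 1 day and 10 days and those of 10 days and 4 h did not, and contralateral left overlapped both 4 h and sham right. Among all 34921 genes, the level of Tgm1 ranked between 1662 and 2747 from the top in the 3 days libraries, and between 20941 and 22595 in the sham right libraries.

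Tgm2 was expressed in sham brain already and varied over a narrower range. At 4 h it stood at 3.07, 3.05 and 4.62 FPKM in libraries 2, 3 and 6, and at 1 day at 4.41, 5.31 and 6.37 FPKM in libraries 1, 3 and 4. At 3 days it stood at 12.8, 7.51 and 11.0 FPKM in libraries 1, 2 and 8. At 10 days it stood at 5.05, 3.83 and 3.56 FPKM in libraries 1, 2 and 5. All 12 stroke libraries were above the highest sham right library, although 4 h 2 and 3 were above it by less than 0.1 FPKM. The contralateral left libraries 1, 3 and 5 were at 2.61, 2.13 and 3.96 FPKM, and the sham right libraries 1, 2 and 3 at 3.02, 2.43 and 2.81 FPKM. The left side thus spread on both sides of the sham values.

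The means of Tgm2 were 3.58 ± 0.897 FPKM at 4 h, 5.36 ± 0.981 at 1 day, 10.4 ± 2.68 at 3 days, 4.15 ± 0.792 at 10 days, 2.90 ± 0.949 in contralateral left and 2.75 ± 0.302 in sham right (SD, n = 3 each). The groups stand in the same order as for Tgm1. Here only 3 days and 1 day, the first neighbours in that order, did not overlap; 1 day and 10 days, 10 days and 4 h, 4 h and contralateral left, and contralateral left and sham right all did. As a ratio of mean FPKM to sham right, Tgm2 was at 1.3 at 4 h, 1.95 at 1 day, 3.79 at 3 days and 1.51 at 10 days.

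**Figure D1:**
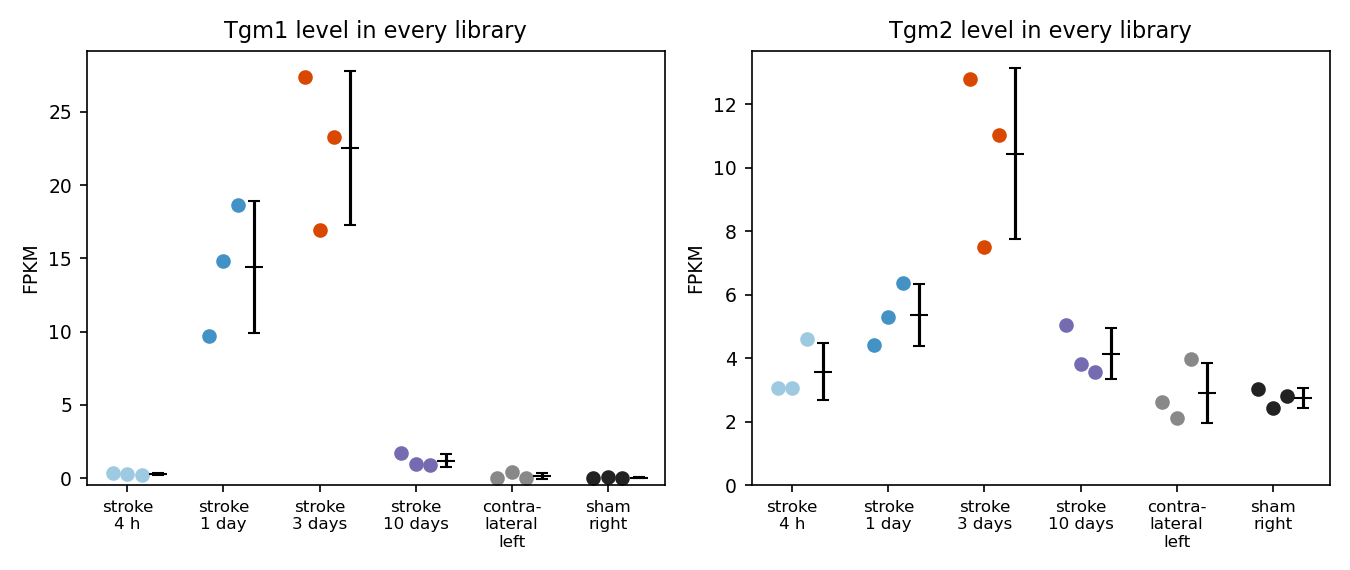
FPKM (y axis, linear) of Tgm1 (left panel) and Tgm2 (right panel) in each of the 18 libraries by group (x axis); the points are libraries, and the black bars give the mean and SD of 3 libraries. Tgm1 reaches 9.69 to 27.4 FPKM at 1 day and 3 days and stays under 2 FPKM elsewhere, while Tgm2 lies between 2.13 and 12.8 FPKM throughout.

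On the log2(FPKM + 1) scale, which holds back the change of a gene near 0, Tgm1 exceeded sham right by 0.29 at 4 h, 3.86 at 1 day, 4.49 at 3 days and 1.07 at 10 days (limma SE 0.21 for each). Ordered by this difference among the 14016 genes tested, Tgm1 was number 2216 from the top at 4 h, 4 at 1 day, 3 at 3 days and 463 at 10 days. Tgm2 exceeded sham right by 0.27, 0.75, 1.58 and 0.45 at the same times (SE 0.21), which made it number 2364, 216, 177 and 1285. In the contralateral left group the differences were 0.12 for Tgm1 and 0.03 for Tgm2. All of these differences share the sham right libraries. As background, limma called 1.32% of all genes tested higher than sham right at 4 h, 0.899% at 1 day, 6.91% at 3 days and 6.21% at 10 days (adjusted p under 0.05); nothing is read from this about 2 genes picked on these levels.

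Tgm1 was 3.57 higher at 1 day than at 4 h on the log2(FPKM + 1) scale, number 3 from the top of all genes tested, and 0.63 higher at 3 days than at 1 day, with overlapping libraries. Tgm2 was 0.48 higher at 1 day than at 4 h and 0.83 higher at 3 days than at 1 day, so more of its difference lies in the later interval. Between 3 days and 10 days the level of Tgm1 dropped by 3.42, the largest drop among the 14016 genes, and that of Tgm2 dropped by 1.13, number 85 from the lowest. Whether the courses of the 2 genes differ was not tested, because they were picked on them.

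Which of the 2 genes had the higher level per length can be read from the ratio of their FPKM. Tgm1 stood at 0.0415 to 0.103 of Tgm2 at 4 h, 2.20 to 2.93 at 1 day, 2.11 to 2.25 at 3 days, 0.250 to 0.333 at 10 days, 0 to 0.180 in contralateral left and 0.00510 to 0.0212 in sham right. It thus exceeded Tgm2 in all 6 libraries of 1 day and 3 days and in no library of the other groups. The 3 ratios at 3 days lay close together, while Tgm1 itself ran between 16.9 and 27.4 FPKM in those libraries.

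In 3 of the 6 groups, the libraries stood in the same order for both genes. The order from high to low was shared at 1 day (4, 3, 1), 3 days (1, 8, 2) and 10 days (1, 2, 5), and not at 4 h, in contralateral left and in sham right. Over all 18 libraries the levels of the 2 genes correlated at Pearson r = 0.872 and Spearman rho = 0.806 on the log2(FPKM + 1) scale; both are high in the same groups. Deviations from the group means correlated at r = 0.433. Both values are descriptions, since all genes of a library share its FPKM total and its cell composition.

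**Figure D2:**
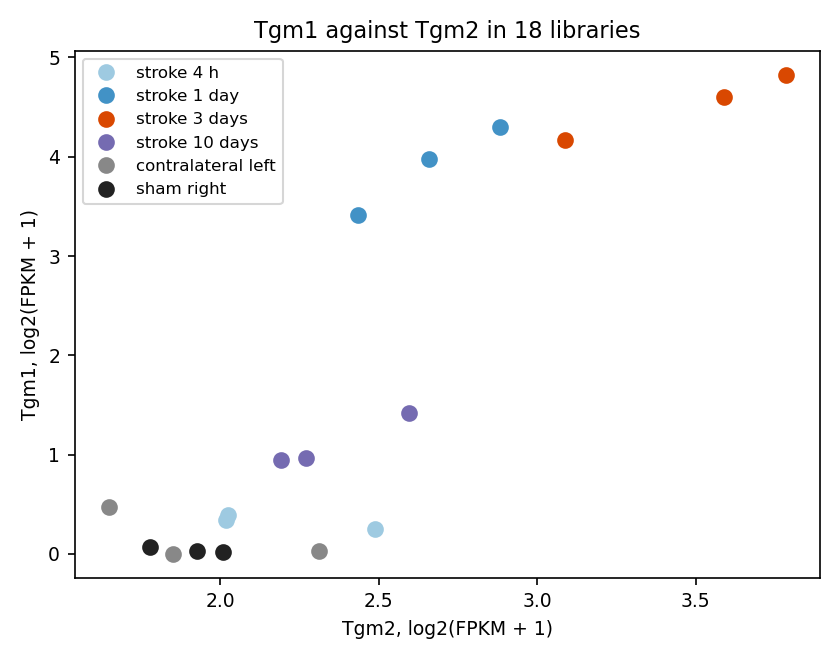
Tgm1 (y axis) against Tgm2 (x axis), both as log2(FPKM + 1), with 1 point for each of the 18 libraries, coloured by group. The libraries of 1 day and 3 days lie apart at the top, and those of 10 days lie between them and the sham right libraries.

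Of the other 8 members of the family, F13a1, the catalytic subunit of clotting factor XIII that crosslinks fibrin, was the only one to pass the filter of 1 FPKM in 3 libraries. It reached 2.61 FPKM in stroke 3 days 8 and 3.14 FPKM in stroke 10 days 5, and its mean at 10 days was above that of Tgm1. It stood at 1.65 ± 0.947 FPKM at 3 days, 1.74 ± 1.28 at 10 days and 0.375 ± 0.0754 in sham right (SD, n = 3 each). The differences of 0.88 ± 0.28 at 3 days (limma adjusted p = 0.0787) and 0.89 ± 0.28 at 10 days (adjusted p = 0.0757) missed the threshold of 0.05, and so did those at 4 h and 1 day. Both had an unadjusted p under 0.05. Tgm3, the epidermal transglutaminase of hair and skin, averaged 0.497 to 0.744 FPKM in every group, and its 3 days libraries (0.597 to 0.989 FPKM) overlapped the sham right libraries (0.358 to 0.671 FPKM). Tgm4, the prostate enzyme, Tgm5, Tgm6 and Tgm7 stayed at or under 0.297 FPKM in every library. F13b, the carrier subunit of factor XIII, and Epb42, an erythrocyte membrane protein of the same fold without enzyme activity, were listed at 0 or under 0.0134 FPKM.

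Of the summed FPKM of all 10 family genes, Tgm1 made up 62.1% to 70.7% at 1 day and 61.6% to 64.5% at 3 days, against 0.365% to 1.42% in sham right. Tgm2 made up 24.1% to 28.3% at 1 day and 28.6% to 30.0% at 3 days, against 66.8% to 74.1% in sham right, although its own level was higher after stroke. The summed family level was 15.6 to 42.5 FPKM over the libraries of those times, against 3.63 to 4.22 FPKM in sham right. At 10 days Tgm2 led again in each library, with 44.0% to 62.4% of the sum, and in stroke 10 days 5 both genes together made up 55.4%, the lowest share of any library.

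**Figure D3:**
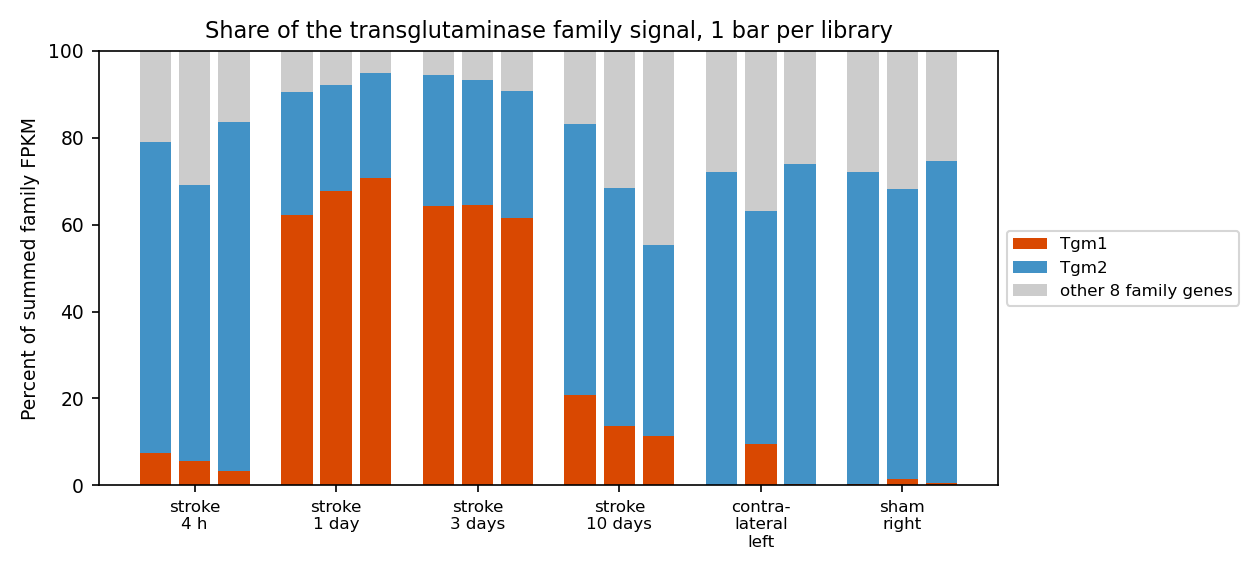
Percent of the summed FPKM of 10 transglutaminase family genes (y axis) taken by Tgm1, Tgm2 and the other 8 genes, 1 bar for each library, grouped by group (x axis). Tgm1 takes over 60% in the 6 libraries of 1 day and 3 days, and Tgm2 over 40% in all others.

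Of the 9 tested genes that overlap or flank Tgm1 and Tgm2, 1 on each chromosome was called at any time. Of all genes tested, 6.91% were called higher at 3 days and 6.21% at 10 days. With 9 genes nothing is read from the count. Rabggta, a subunit of the enzyme that lipidates Rab proteins, lies on the same strand with its nearer end, the 3′ end, 1490 bases from Tgm1, and was at 11.9 ± 0.695 FPKM at 3 days and 10.47 ± 0.886 in sham right, a difference of 0.17 ± 0.13 (limma adjusted p = 0.632). Dhrs1, a short-chain dehydrogenase 25094 bases away, rose at 3 days to 55.0 ± 8.06 FPKM, against 14.5 ± 1.58 in sham right (1.85 ± 0.22, limma adjusted p = 3.12e-05). Tinf2 and Gmpr2, on the other side of Tgm1, were not called at any time. The antisense gene Gm49067 covers 12274 bases of Tgm1 and was not analysed here.

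Rprd1b, a regulator of RNA polymerase II on the opposite strand, overlaps Tgm2 by 15896 bases and stood at 1.24 ± 0.0199 FPKM at 3 days and 1.19 ± 0.167 in sham right. It was not called at any time. Gm20412, inside Tgm2 on the opposite strand, was listed at 0 in all libraries except stroke 1 day 4 (0.0309 FPKM). Strand handling is not given in the sources used here, so reads from the overlapping parts of Tgm1 or Tgm2 and these genes cannot be told apart. Of the flanking genes Tti1, Vstm2l, Lbp and Snhg17, Lbp, which binds bacterial lipopolysaccharide, was called at 10 days, at 2.72 ± 1.29 FPKM against 0.687 ± 0.156 in sham right (1.09 ± 0.27, limma adjusted p = 0.0155); that call was lost in 3 of 6 fits without a library, at an adjusted p of up to 0.101.

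The partners, substrates and known inducers of the 2 enzymes were followed in 7 lists, which hold 85 genes, 80 of them in the table and 58 tested. The lists were chosen with earlier results of these data known, so their shares beside those of all genes are a description only. At 4 h, 4 of the 58 were called higher and 1 lower, against 1.32% and 0.863% of all genes tested. Over all genes this was 185 higher and 121 lower, and 151 and 58 when FPKM were rescaled without mitochondrial genes. At 1 day 4 were called higher and 0 lower, against 0.899% and 0.278% of all genes, and 16 of the 58 had an unadjusted p under 0.05. At 3 days, the time of the highest Tgm1 and Tgm2, 16 were called higher (27.6% of the 58) and 1 lower, against 6.91% and 0.457%. At 10 days 12 were called higher (20.7%) and 1 lower, against 6.21% and 0.92%. In contralateral left limma called 0 of the 58 (4 at an unadjusted p under 0.05), against 0.0285% of all genes in either direction. The median difference of the 58 genes was 0.31 at 3 days and 0.09 at 10 days, against 0.08 and -0.07 for all genes tested. It was below that of all genes at 4 h (-0.020 against 0.006), at 1 day (0.026 against 0.034) and in contralateral left (-0.089 against -0.048). The shares of all genes given here apply to each list below as well.

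Genes of the cornified envelope, where Tgm1 works in the skin, were low in all groups. Of 18 genes of that list 14 were in the table and 4 passed the filter, and their summed level over all 14 was 9.06 to 11.4 FPKM at 4 h, 7.52 to 11.3 at 1 day, 7.41 to 8.75 at 3 days, 6.06 to 7.54 at 10 days, 8.28 to 10.0 in contralateral left and 8.14 to 8.55 in sham right. The Tgm1 substrate involucrin (Ivl), keratin 14 (Krt14) and Sprr2a1 were listed at 0 in every library of 4 h, contralateral left and sham right. At 10 days this held for Krt14 and Sprr2a1 only. At 1 day and at 3 days each of these genes was above 0 in at least 1 library. Alox12b, a lipoxygenase of the skin barrier, was the only called member, at 4 h, with 3.57 ± 1.29 FPKM against 0.957 ± 0.138 in sham right (1.18 ± 0.26, limma adjusted p = 0.024). That call was lost in 5 of 6 fits without a library, at an adjusted p of up to 0.119, and against contralateral left, at 0.104.

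Of 9 tested cell surface partners of Tgm2, 3 rose and 1 fell at 3 days, and 2 rose and 1 fell at 10 days. Integrin beta 5 (Itgb5) was at 22.2 ± 2.50 FPKM at 3 days (1.25 ± 0.13, limma adjusted p = 1.05e-05) and 37.2 ± 5.80 at 10 days, against 8.75 ± 0.963 in sham right. Integrin beta 1 (Itgb1), with which Tgm2 binds fibronectin, was at 36.1 ± 6.05 FPKM at 3 days (0.74 ± 0.15, adjusted p = 0.0032) and 35.8 ± 4.72 at 10 days, against 21.1 ± 1.26 in sham right. Itgb5 was thus higher at 10 days than at 3 days, and Itgb1 about level, while Tgm2 was at 4.15 FPKM at 10 days. Syndecan 4 (Sdc4), a heparan sulfate proteoglycan, was called at 1 day (1.09 ± 0.20, limma adjusted p = 0.0085) and at 3 days (0.72 ± 0.20, adjusted p = 0.0359), while Mfge8, a bridge to dying cells, fell by 0.57 at 3 days and by 0.63 at 10 days. The VEGF receptor Kdr fell by 0.64 at 4 h. In fits without a library, the calls of Sdc4, Mfge8 and Kdr were lost in 2 to 6 of 6, at limma adjusted p values of up to 0.225. Set against contralateral left, those of Kdr (0.624), Sdc4 (0.381 at 1 day and 0.898 at 3 days) and, at 3 days, Mfge8 (0.0661) also missed the threshold.

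The matrix and secreted substrates of Tgm2 were 5 of 11 called higher at 3 days and 7 of 11 at 10 days, with medians of 1.07 and 1.39. Fibronectin (Fn1) was at 11.3 ± 4.03 FPKM at 3 days, against 3.25 ± 0.238 in sham right (1.49 ± 0.25, limma adjusted p = 0.000901). Osteopontin (Spp1), a secreted adhesion protein, was at 365 ± 137 FPKM at 3 days and 1134 ± 1156 at 10 days, against 13.3 ± 4.22 in sham right. Galectin 3 (Lgals3) was at 26.1 ± 15.8 FPKM at 3 days and 26.3 ± 8.07 at 10 days, against 0.439 ± 0.314 in sham right. Collagen III (Col3a1) was at 5.38 ± 4.73 FPKM at 3 days and 30.0 ± 13.1 at 10 days, against 0.712 ± 0.0766 in sham right. The means of Spp1 and Col3a1 were thus higher at 10 days than at 3 days, where those of Tgm1 and Tgm2 were lower. Nidogen (Nid1) was also called at 3 days (0.75 ± 0.21, limma adjusted p = 0.0347; lost in 4 of 6 fits without a library, at up to 0.243), and Lgals3 already at 1 day (1.86 ± 0.34, adjusted p = 0.00817; lost in 4 of 6, at up to 0.0616).

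Of 8 genes tied to the G protein and redox roles of Tgm2, 2 were called, both at 3 days. Pdia3, a disulfide isomerase, was at 103 ± 11.8 FPKM, against 66.9 ± 1.28 in sham right (0.60 ± 0.12, limma adjusted p = 0.00349). Txnrd1, a thioredoxin reductase, was at 8.65 ± 0.781 FPKM, against 5.71 ± 0.527 in sham right (0.53 ± 0.13, adjusted p = 0.0181; lost in 3 of 6 fits without a library, at up to 0.105).

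Retinoic acid genes, 12 tested, showed 1 call at 4 h, 3 at 3 days and 1 at 10 days, all higher. Dhrs3, which turns retinal back to retinol, was at 5.19 ± 0.935 FPKM at 3 days and 8.49 ± 1.34 at 10 days, against 2.81 ± 0.339 in sham right. Rdh10, the enzyme of the opposite step, was 0.42 ± 0.10 higher at 3 days (adjusted p = 0.00904; lost without sham right 3, at 0.0547, and against contralateral left, at 0.133), and the receptor Rara was 0.77 ± 0.19 higher at 4 h (limma adjusted p = 0.045; lost in 5 of 6 fits without a library, at up to 0.201, and against contralateral left, at 0.0595). With the replicate number as a block, the calls of Dhrs3 at 3 days (limma adjusted p = 0.0888), Rdh10 (0.0983) and Rara (0.149) were lost.

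Among 13 known inducers of transglutaminase genes, 2 were called higher at 4 h and 2 at 1 day. At 3 days 3 were, and at 10 days 2. Whether any of them acts on Tgm1 or Tgm2 in this tissue was not tested. Stat3, the factor behind interleukin-6 signals, was at 4.77 ± 0.655 FPKM at 4 h, 7.75 ± 2.26 at 1 day, 6.64 ± 1.13 at 3 days and 4.49 ± 0.522 at 10 days, against 3.05 ± 0.239 in sham right. It was called at 1 day (1.08 ± 0.19, limma adjusted p = 0.00651) and at 3 days (0.91 ± 0.19, adjusted p = 0.00478). With the replicate number as a block, its call at 1 day was lost, at a limma adjusted p of 0.0650. Fosl1, an AP-1 subunit, was called at 4 h (0.77 ± 0.13, limma adjusted p = 0.00464), at 1 day (0.61 ± 0.13, adjusted p = 0.0278) and at 3 days (0.45 ± 0.13, adjusted p = 0.0449), the calls of 1 day and 3 days being lost in 5 and 6 of 6 fits without a library, at up to 0.175, and that of 3 days also against contralateral left, at 0.0835. Smad3, which carries TGF-beta signals, was called at 4 h (1.03 ± 0.23, limma adjusted p = 0.0272; lost in 5 of 6, at up to 0.129). Tgfb1 itself was at 2.24 ± 0.621 FPKM at 3 days and 3.03 ± 0.249 at 10 days, against 0.636 ± 0.197 in sham right (0.97 ± 0.13, adjusted p = 0.000105 at 3 days). Hif1a was called at 10 days (0.62 ± 0.16, adjusted p = 0.0256; lost in 4 of 6, at up to 0.111).

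**Figure D4:**
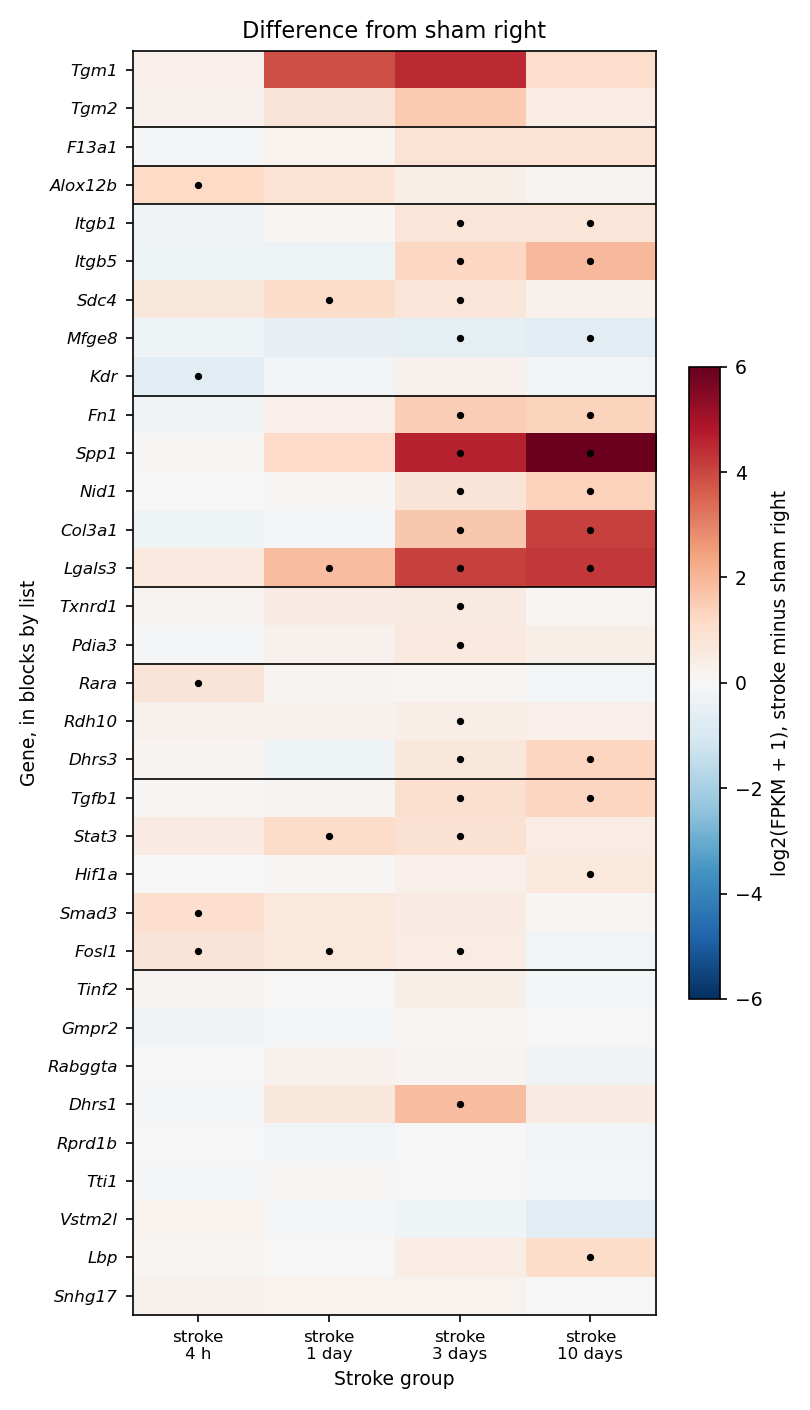
Difference from sham right on the log2(FPKM + 1) scale (colour) of Tgm1, Tgm2 and, in blocks by list, F13a1, Alox12b, cell surface partners, matrix substrates, redox partners, retinoic acid genes, inducers and neighbouring genes (rows) in the 4 stroke groups (columns); dots mark limma adjusted p under 0.05, not applied to Tgm1 and Tgm2. Tgm1 is most intense at 1 day (3.86) and 3 days (4.49), Spp1 at 3 days and 10 days.

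Markers of several cell types differed over the same groups, and their part in the levels of Tgm1 and Tgm2 was not tested. Of 58 markers 57 were in the table and 52 tested. Of these, 0 were called higher and 5 lower at 4 h, against 1.32% and 0.863% of all genes tested. At 1 day 2 were called higher and 1 lower, against 0.899% and 0.278%. At 3 days 9 (17.3%) were called higher and 0 lower, against 6.91% and 0.457%, and at 10 days 9 (17.3%) and 1, against 6.21% and 0.92%. In contralateral left limma called 0, and 11 had an unadjusted p under 0.05.

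The 9 microglia and macrophage markers summed to 32.6 to 37.7 FPKM at 4 h, 43.8 to 53.2 at 1 day, 112 to 152 at 3 days, 162 to 263 at 10 days, 41.6 to 49.9 in contralateral left and 39.2 to 55.3 in sham right. Msr1 was called higher at 1 day, and 5 of 9 were called at both later times. At 1 day this sum overlapped sham right, while 3 of the 9 markers had an unadjusted p under 0.05. The 7 astrocyte markers summed to 349 to 381 FPKM at 4 h, 478 to 615 at 1 day, 693 to 881 at 3 days, 598 to 647 at 10 days, 380 to 543 in contralateral left and 420 to 449 in sham right. Gfap was called higher at 1 day, 3 days and 10 days and Aldh1l1 at 3 days, while the water channel Aqp4 was called lower at 4 h. The 7 neutrophil markers summed to 6.04 to 19.2 FPKM at 4 h, 6.09 to 23.3 at 1 day, 4.41 to 7.80 at 3 days, 4.02 to 6.05 at 10 days, 4.44 to 16.0 in contralateral left and 0.951 to 5.31 in sham right. The libraries of 4 h and 1 day were above sham right and overlapped contralateral left, and Ly6g was listed at 0 in every library of 4 h, 1 day, 3 days and sham right.

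The 8 endothelial markers summed to 57.2 to 81.6 FPKM at 4 h, 79.9 to 111 at 1 day, 146 to 150 at 3 days, 107 to 152 at 10 days, 81.6 to 126 in contralateral left and 123 to 134 in sham right. At 4 h 3 of 8 were called lower (Itm2a, Tek and Slco1a4), Itm2a also at 1 day, and at 3 days Pecam1 was called higher. Set against contralateral left, the calls of Tek (limma adjusted p = 0.0901) and Slco1a4 (0.0679) at 4 h and of Itm2a at 1 day (0.0536) were lost. The 6 smooth muscle and pericyte markers summed to 31.2 to 34.4 FPKM at 4 h, 33.2 to 38.4 at 1 day, 52.8 to 61.9 at 3 days, 46.1 to 51.3 at 10 days, 20.7 to 36.7 in contralateral left and 38.4 to 48.5 in sham right, with Tagln called higher at 3 days. The 6 fibroblast and meninges markers summed to 10.97 to 14.04 FPKM at 4 h, 13.6 to 16.6 at 1 day, 16.7 to 54.1 at 3 days, 45.1 to 139 at 10 days, 12.1 to 14.8 in contralateral left and 17.04 to 19.7 in sham right. Col1a2, Lum and Dcn were called higher at 10 days, and Slc6a13 lower at 4 h and 10 days.

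The 6 neuron markers summed to 870 to 921 FPKM at 4 h, 817 to 907 at 1 day, 704 to 894 at 3 days, 735 to 918 at 10 days, 630 to 835 in contralateral left and 721 to 818 in sham right, so that every 4 h library was above sham right. The 4 oligodendrocyte markers summed to 395 to 660 FPKM over the stroke libraries, 496 to 615 in contralateral left and 532 to 765 in sham right. The 4 choroid plexus markers summed to 2.30 to 580 FPKM at 4 h, 1.12 to 425 at 1 day, 2.86 to 222 at 3 days, 406 to 631 at 10 days, 380 to 540 in contralateral left and 146 to 270 in sham right. Every library of 10 days and of contralateral left was thus above sham right. No neuron, oligodendrocyte or choroid plexus marker was called by limma in any group. Those with an unadjusted p under 0.05 were 2 oligodendrocyte markers at 1 day and 1 choroid plexus marker each at 3 days, at 10 days and in contralateral left.

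The calls of Pecam1, Aqp4, Aldh1l1, Slc6a13 and Dcn and, at 3 days, of Aif1 and Tmem119 were lost in 1 to 5 of 6 fits without a library, at limma adjusted p values of up to 0.149. Against contralateral left those of Aqp4 (0.0513), Aldh1l1 (0.147), Tmem119 at 3 days (0.0548) and Slc6a13 (0.393 at 4 h and 0.778 at 10 days) missed the limma threshold. With the replicate number as a block, the calls of Msr1 at 1 day (limma adjusted p = 0.0853) and Aif1 at 3 days (0.0960) were lost. So were those of Pecam1 (0.0744), Aqp4 (0.0600), Aldh1l1 (0.156) and Slc6a13 (0.0850 at 4 h and 0.0700 at 10 days). These marker genes were named after their values were seen.

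Among the 5 genes whose pattern was most like that of Tgm1 over the 18 libraries, by Pearson r of log2(FPKM + 1), were Glipr2 (r = 0.982, rho = 0.955), Tm4sf1 (0.951 and 0.841), Bcl3 (0.944 and 0.878) and AI506816 (0.933 and 0.953). Glipr2 was at 6.66 ± 1.83 FPKM at 1 day, 8.10 ± 2.15 at 3 days and 2.41 ± 0.353 at 10 days, against 1.65 ± 0.114 in sham right. Tm4sf1, a membrane protein abundant in endothelium, stood at 9.71 ± 2.05 FPKM at 1 day and 9.93 ± 1.99 at 3 days, against 3.65 ± 0.337 in sham right. Bcl3, an atypical inhibitor of NF-kappaB, stood at 1.62 ± 0.473 FPKM at 1 day and 1.82 ± 0.389 at 3 days, against 0.153 ± 0.0513 in sham right. Tgm2 ranked 34 by r with Tgm1.

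Among the 5 genes most like Tgm2 were Mcm5 (r = 0.940, rho = 0.870), Parp3 (0.934 and 0.917), Cchcr1 (0.931 and 0.878) and Mcm2 (0.925 and 0.860), and Tgm1 ranked 44. Mcm5 and Mcm2, subunits of the helicase that opens DNA for replication, were at 3.55 ± 0.912 and 1.97 ± 0.505 FPKM at 3 days, against 1.09 ± 0.145 and 0.615 ± 0.0742 in sham right. Parp3, an enzyme of DNA repair, was at 3.40 ± 0.546 FPKM at 3 days, against 0.780 ± 0.1005 in sham right. The 18 libraries fall into the same groups for every gene, and all genes of a library share its FPKM total, so these values of r carry no p.

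**Figure D5:**
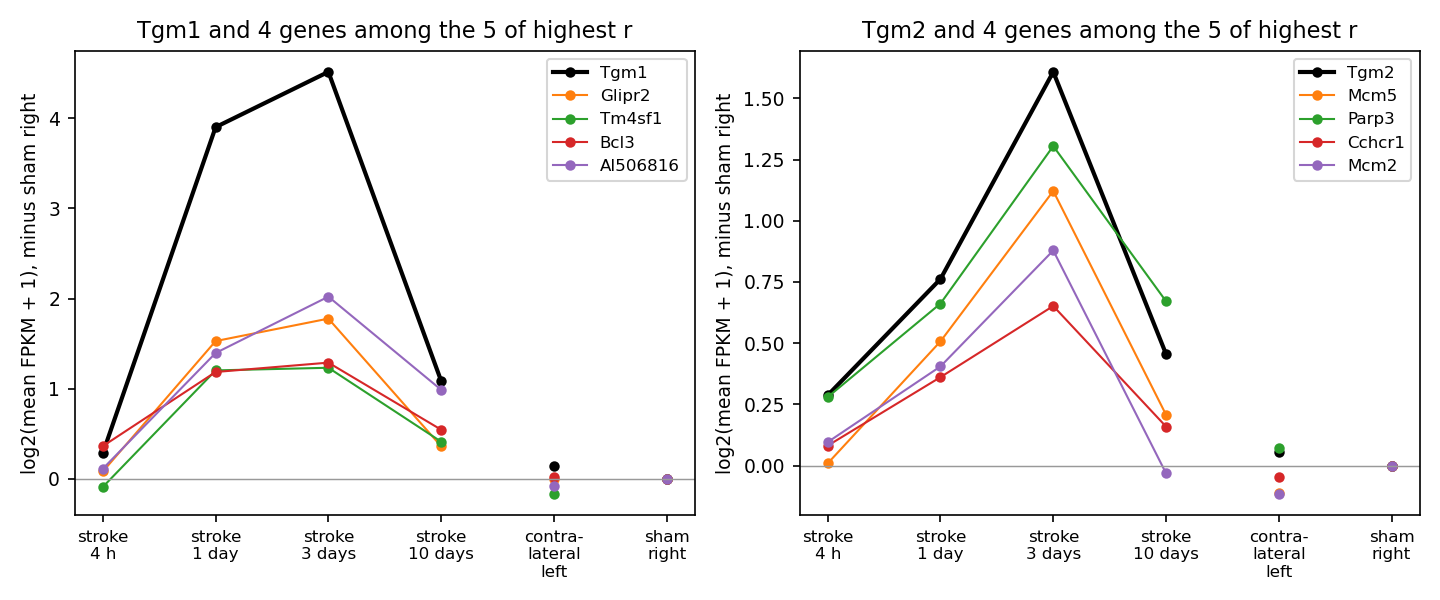
Group means of Tgm1 (left) and Tgm2 (right), in black, and of 4 genes among the 5 of highest r with each, as log2(mean FPKM + 1) minus the value in sham right (y axis), by group (x axis); lines join the 4 times. Tgm1 and Glipr2 climb between 4 h and 1 day, while Tgm2 and Mcm5 are highest at 3 days.

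In the authors' deposited table, Tgm1 has a p-value of 2.26e-10 with a q-value of 4.29e-06, and Tgm2 a p-value of 0.000146 with a q-value of 0.00981. The groups behind these values are not given in the sources used here, and they enter no comparison above.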

How the data were processed

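Total RNA was sequenced from 18 tissue punches in 6 groups of 3. The submitters' processing notes list StringTie (1.3.4d), HISAT2 (2.1.0), Trimmomatic (0.36) and the build GRCm38; settings, annotation and strand handling are not given in the sources used here. The authors deposited FPKM per gene and library, and a p-value and q-value per gene whose comparison is not given in the sources used here; the q-value is under 0.05 for 1178 genes. The copy used holds 34921 complete gene entries (34797 matched to GENCODE M21), and 1 incomplete last entry was left out. The list genes Sprr1b, Sprr3, Dsp, Casp14, Adgrg1 and Myh11 were not analysed here. In a check for whole fragments on 7416 genes with 1 exon longer than 300 bases, 33.3% to 40.0% of low values lay within 0.1 of a whole multiple, so no counts were recovered and the depth per library is unknown.

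Genes with at least 1 FPKM in 3 or more libraries (14016, Tgm1 and Tgm2 among them) were fitted as log2(FPKM + 1) with limma 3.58.1 (empirical Bayes with trend and robust; statmod 1.5.0 and data.table, version 1.17.8, under R 4.3.3), 1 mean per group over all 18 libraries. Differences carry the limma SE, p-values were adjusted with the Benjamini-Hochberg method over the 14016 genes, with calls made where the adjusted p was under 0.05. Fold changes on this scale understate the change of low genes. The fit was tested on simulated data. Tgm1 and Tgm2, the gene lists and the marker lists were chosen with earlier results of these data known. The genes named are Tgm1 and Tgm2, their family, all called members of a list where 5 or fewer were called in a direction and otherwise the 2 of smallest adjusted p, the 2 nearest tested genes on each side, and the 5 genes of highest Pearson r, except 2 genes that are not reported here. Promoter sequence is from RefSeq (GRCm38.p6). Alternatives were another pseudocount, no filter, rescaling without mitochondrial genes, the replicate number as a block, contralateral left as the control, leaving out the libraries least like their groups, and leaving out each library.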

Additional observations from a re-analysis of the deposited data

Results flagged for a closer look

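Some genes described beside Tgm1 and Tgm2 lay below sham right in every library of 1 group and above it in every library of another. The differences between those groups were not tested. How many of all genes tested show such a pattern was not counted. It is thus not read as particular to the genes below. For Tgm1 and Tgm2 themselves no group lay wholly below sham right. The values that follow are mean FPKM. Among the surface partners of Tgm2, Kdr was below sham right (1.45) in stroke 4 h (0.575), stroke 1 day (1.15) and contralateral left (0.725), and above it in stroke 3 days (2.00). Itgb5 was at 7.03 in stroke 4 h and 6.76 in stroke 1 day, both below, and at 22.2 in stroke 3 days and 37.2 in stroke 10 days, both above, with 8.75 in sham right. Itgb1 was at 16.9 in contralateral left, below, and at 36.1 in stroke 3 days and 35.8 in stroke 10 days, above, with 21.1 in sham right. Of the Tgm2 substrates and redox partners, Col3a1 was below in contralateral left (0.413) and above in stroke 3 days (5.38) and stroke 10 days (30.0), with 0.712 in sham right. Pdia3 was below in contralateral left (58.8) and above in stroke 1 day (80.2), stroke 3 days (103) and stroke 10 days (86.9), with 66.9 in sham right.

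Among the retinoid genes, Dhrs3 was at 2.13 in stroke 1 day, below, and at 5.19 in stroke 3 days and 8.49 in stroke 10 days, above, with 2.81 in sham right. Of the markers, Aqp4 was below in stroke 4 h (18.5) and above in stroke 3 days (52.5), with 37.1 in sham right. Aif1 was below in stroke 4 h (1.76) and above in stroke 3 days (12.3) and stroke 10 days (20.8), with 3.96 in sham right. Ms4a7 was below in stroke 4 h (0.0486) and above in stroke 3 days (0.769) and stroke 10 days (5.27), with 0.151 in sham right. Col1a2 was below in stroke 1 day (0.705) and above in stroke 3 days (4.18) and stroke 10 days (19.7), with 1.04 in sham right. Dcn was below in stroke 4 h (2.31) and contralateral left (3.17) and above in stroke 10 days (24.9), with 5.28 in sham right.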

How the results depend on the processing

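Of 184 values of the 16 differences of Tgm1 and Tgm2 under alternatives, 174 moved by less than the spread between replicates, and 5 changed sign, all of them in contralateral left against sham right. There, leaving out 1 library gave -0.030 to 0.20 for Tgm1 and -0.15 to 0.18 for Tgm2, and the replicate block gave -0.079 for Tgm2, so neither gene has a stable direction on that side. With a pseudocount of 0.1 the differences of Tgm1 were 1.45 at 4 h, 6.76 at 1 day, 7.43 at 3 days, 3.27 at 10 days, 0.47 in contralateral left, 5.31 between 1 day and 4 h, and -4.16 between 10 days and 3 days, and that of Tgm2 at 3 days was 1.86, which follows from the smaller number added to low values. Against contralateral left, Tgm1 differed by 0.16 at 4 h.

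The replicate numbers were not taken to pair the libraries, since deviations of same-numbered libraries correlated at -0.227 to 0.409 over 23 pairs. Libraries 1 and 3 of contralateral left and sham right, which may share a mouse, correlated at 0.219 and 0.102 with their own number; the 7 other pairs of these groups gave -0.314 to 0.371, so shared animals are not settled. With the replicate number as a block, Tgm2 at 1 day differed by 0.57, and the genes called were 106 at 4 h, 62 at 1 day and 1 in contralateral left, against 306, 165 and 4 without it.

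Set against contralateral left, 176 genes were called at 4 h, and the difference of Sdc4 at 3 days was -0.047. Without a filter, and after rescaling without mitochondrial genes, 0 genes were called in contralateral left. Without contralateral left 5 and stroke 10 days 5 the calls were 1802 at 4 h, 419 at 1 day, 1738 at 3 days and 2767 in contralateral left; the cause was not tested. Leaving out 1 library gave 88 to 189 calls at 4 h, 84 to 155 at 1 day, 647 to 1012 at 3 days and 0 to 1212 in contralateral left (1212 without contralateral left 5), against 306, 165, 1032 and 4. Of 65 calls of named genes, 41 held in every such fit; 20 ended with the replicate block, among them Stat3 (adjusted p = 0.0650) and Fosl1 (0.266) at 1 day and Fosl1 at 4 h (0.104), and 16 against contralateral left. With 3 libraries a group and an unknown depth, no precision can be given for Tgm1 levels near 0.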
